A study of Homo sapiens with 5 samples.

Results

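Antibody 2 against PRDM11 gave 4705 peaks of at least 300 bp when its reads were set against the IgG control, and 2845 of them shared no base with a peak of antibody 1 against the same protein. These 2845 wide antibody 2-only peaks, out of 465837 antibody 2 peaks in that list and 1150695 peaks in all 6 lists of the series, were selected on the width of the antibody 2 peak and on the antibody 1 peak positions. Both criteria are measured values, so widths and antibody 1 overlaps are given as descriptions. Positions of RNA polymerase II peaks took no part in the choice.

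The peaks came from untreated U2932 cells, an established human B cell lymphoma line, by chromatin immunoprecipitation and sequencing (ChIP-seq). Cross-linked, sonicated chromatin was precipitated with a rabbit polyclonal antibody to PRDM11 (antibody 1 or antibody 2, neither of them commercial), with an antibody to RNA polymerase II, or with rabbit IgG, and an input library with no precipitation completed the 5 libraries. Every condition had 1 library, and the labels name no genetic change or treatment in any of them. The lists give positions on human build hg19 without read counts, so depth is unknown; no gene annotation of that build was used, and neither the cell line's lymphoma label nor the genes under the peaks were checked here. Each share is followed by its exact 95% binomial interval (Clopper-Pearson), which takes peaks as independent and so covers no more than counting error. With 1 library per antibody, no test between conditions was possible and no p-value is given.

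PRDM11 belongs to the PR domain family, nuclear proteins named for a domain related to the SET domain of histone methyltransferases. Many members of the family bind DNA through arrays of zinc fingers and act as regulators of transcription in cell differentiation, and PRDM1 is the best known of them in B cells. RNA polymerase II transcribes protein-coding genes, and its ChIP-seq peaks are typically strongest near the starts of active genes. Polyclonal antibodies are mixtures that bind several sites on a protein, and a pair of them raised against the same protein offers a check of where each finds it.

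The wide antibody 2-only peaks lay mostly away from RNA polymerase II. Of the 2845 peaks, 265 shared at least 1 bp with an RNA polymerase II peak, or 9.31% (8.27% to 10.4%). Over all antibody 2 peaks, most of them at the 123 bp minimum width, this share was 3.2%, and over the 455569 narrower peaks without antibody 1 it was 2.13% (2.09% to 2.17%). The 1860 antibody 2 peaks of at least 300 bp that did overlap an antibody 1 peak lay in RNA polymerase II peaks in 1441 cases, or 77.5% (75.5% to 79.4%). The wide antibody 2-only peaks were thus above the narrower peaks and far below the wide peaks with antibody 1, with no overlap between the 3 intervals. With RNA polymerase II called against input, 314 of the 2845 peaks overlapped (11.0%, against 3.86% of all antibody 2 peaks), and 1506 of the 1860 with antibody 1 did so (81.0%).

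Width separated the peaks without antibody 1 further, although wider peaks also have more bases with which to meet a peak of another list. Among antibody 2 peaks without antibody 1, the share in RNA polymerase II was 1.83% at 123 bp, 3.56% at 200 to 249 bp and 4.06% (3.72% to 4.42%) at 250 to 299 bp. It was 7.84% (6.56% to 9.29%) for the 1568 members of 300 to 349 bp and 8.64% for the 810 of 350 to 399 bp. For the 403 members of 400 to 499 bp it was 14.4% (11.1% to 18.2%), and for the 64 of 500 bp or wider 21.9% (12.5% to 34.0%). Peaks with antibody 1 started from a high share even when narrow, at 58.0% (56.0% to 59.9%) for 123 bp, and reached 82.5% (79.2% to 85.4%) at 500 bp or wider. At each of the 8 width classes the interval without antibody 1 lay below the interval with it. Just outside the width limit, 34 of the 445 antibody 2-only peaks of 290 to 299 bp lay in RNA polymerase II (7.64%), and just inside it, 33 of the 396 of 300 to 309 bp did (8.33%).

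**Figure D1:**
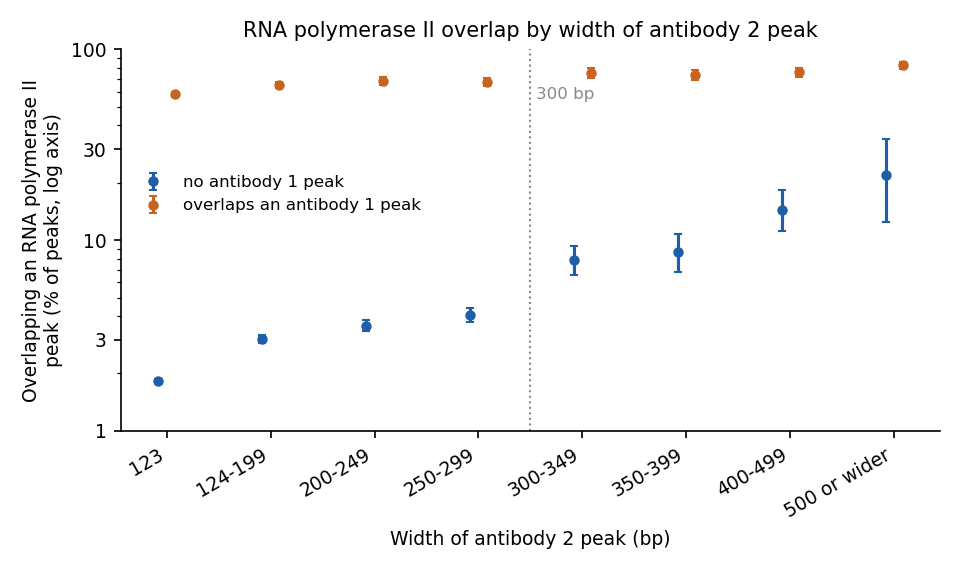
Share of antibody 2 peaks that overlap an RNA polymerase II peak (log axis) by width of the antibody 2 peak in bp, for peaks without (blue) and with (orange) an antibody 1 peak; points are shares, bars exact 95% binomial intervals, and the dotted line marks 300 bp. Without antibody 1 the share goes from 1.83% at 123 bp to 21.9% at 500 bp or wider, and with antibody 1 from 58.0% to 82.5%.

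The single base at the peak centre offers a target of the same size in peaks of any width. Its coverage was not divided further by width class. An RNA polymerase II peak covered the centre of 6.33% of the wide antibody 2-only peaks, of 61.8% of the wide peaks with antibody 1 and of 1.64% of the narrower peaks without antibody 1. For the wide antibody 2-only peaks, coverage at positions 1000 bp to the left and right was 2.95% and 3.02%, and 5000 bp to the left and right it was 1.37% and 1.97%. RNA polymerase II coverage of this group was thus highest at the antibody 2 peak itself, at a low level. Antibody 1 peaks, absent from the centre by the rule, covered 1.02% of positions 500 bp to the left and 1.30% of positions 500 bp to the right, against 0.281% and 0.176% at 5000 bp to the left and right.

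**Figure D2:**
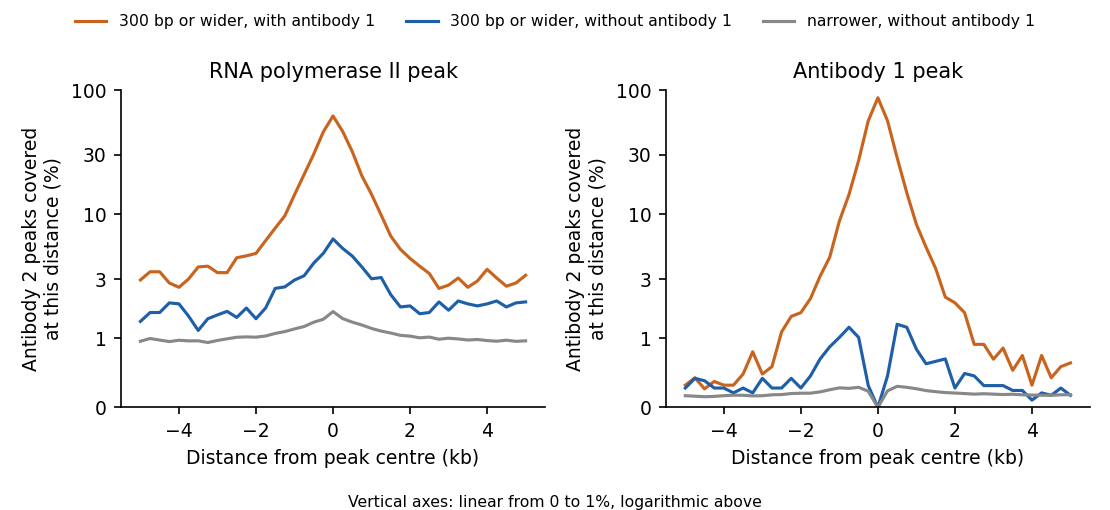
Percentage of antibody 2 peaks whose position at a given distance from the peak centre (kb, in steps of 250 bp) is covered by an RNA polymerase II peak (left) or an antibody 1 peak (right); axes are linear from 0 to 1% and logarithmic above. The blue line, wide antibody 2-only peaks, reaches 6.33% for RNA polymerase II at the centre, between the orange line of wide peaks with antibody 1 (61.8%) and the grey line of narrower peaks without it (1.64%).

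Beyond the overlaps, the group was spread over a wide range of distances from RNA polymerase II. A further 164 peaks (5.76%) lay beside an RNA polymerase II peak, at most 1 kb away, and 1430 (50.3%, 48.4% to 52.1%) lay more than 50 kb from any. Of the wide peaks with antibody 1, 6.29% (5.23% to 7.49%) lay so far away, and of the narrower antibody 2-only peaks 61.8% (61.6% to 61.9%). In 1508 of the 2845 peaks (53.0%, 51.2% to 54.9%) no peak of antibody 1 or RNA polymerase II, in any of their 4 lists, lay within 10 kb. For narrower antibody 2-only peaks this share was 67.6%.

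Where a wide antibody 2-only peak did meet RNA polymerase II, the RNA polymerase II peak was often a wide one; wider peaks are also more likely to be met, whatever their relation to antibody 2. Taking for each of the 265 peaks the RNA polymerase II peak it met (for the 23 that met several, 1 of them), the median width was 418 bp (quartiles 238 and 732 bp), against 246 bp (167 and 418 bp) for all 50161 RNA polymerase II peaks. The peaks met by wide antibody 2 peaks with antibody 1 had a median of 547 bp. The median antibody 2-only peak was covered by RNA polymerase II over 68.2% of its length, and 70 of the 265 (26.4%) lay wholly inside. Among those with their midpoint inside an RNA polymerase II peak of 500 bp or wider, 56 of 91 (61.5%, 50.8% to 71.6%) lay in its central 50%. For the wide peaks with antibody 1 the figure was 63.1% (59.5% to 66.5%) of 739, an interval that overlaps the former. Of the 265 RNA polymerase II peaks met, 27 (10.2%, 6.82% to 14.5%) held an antibody 1 peak elsewhere along their length, against 14.3% of all RNA polymerase II peaks. The rule left out antibody 2 peaks that overlap antibody 1, so the first of these shares depends on the choice and is a description only.

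The antibody 1 library called against input shows how far the absence of antibody 1 depends on the control, since it is the same library that the rule used. Of the 2845 peaks, 155 overlapped an antibody 1 peak of the input list, or 5.45% (4.64% to 6.35%), against 2.39% of all antibody 2 peaks; 2690 had no antibody 1 peak with either control. The antibody 1 input-list peaks they met had a median width of 171 bp, with 21.3% at the 123 bp minimum, close to the 172 bp and 25.1% of all 54038 peaks in that list. Those met by wide antibody 2 peaks with antibody 1 had a median of 624 bp. An antibody 1 input-list peak covered 35.9% of the median antibody 2-only peak it met, and 93.5% of the median wide peak with antibody 1. Antibody 1 peaks called against input crowd into 93 1-Mb bins on 9 chromosomes, in which they outnumber the IgG-list peaks at least 5 times. Those bins held 156 of the 2845 peaks (5.48%) and 4.04% of the narrower antibody 2-only peaks. Within the bins 19.2% (13.4% to 26.3%) of the wide antibody 2-only peaks overlapped an antibody 1 input-list peak, and outside them 4.65% (3.88% to 5.51%). The bins were chosen for their many antibody 1 input-list peaks, so this difference is built into the choice.

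Overlap with RNA polymerase II and overlap with the antibody 1 input list went together. Of the 265 peaks in RNA polymerase II, 67 were in an antibody 1 input-list peak (25.3%, 20.2% to 31.0%), and of the 2580 others 88 (3.41%, 2.74% to 4.19%). These lists were called against different controls. Outside the crowded bins the shares were 24.8% (19.6% to 30.6%) of 254 and 2.55% (1.96% to 3.25%) of 2435, and inside them 4 of 11 and 26 of 145. This divided the group into 4 classes: 2492 peaks in neither list (87.6%), 198 in RNA polymerase II only (6.96%), 88 in the antibody 1 input list only (3.09%) and 67 in both (2.36%). By the same choice of bins, the class in antibody 1 only held the largest share of peaks in them, 26 of 88 (29.5%, 20.3% to 40.2%), against 119 of 2492 (4.78%) in neither list, 7 of 198 in RNA polymerase II only and 4 of 67 in both. The median widths were 343 bp in neither list, 349 bp in RNA polymerase II only, 341 bp in antibody 1 only and 379 bp in both. Peaks of 400 bp or wider made up 34.3% (23.2% to 46.9%) of the class in both lists and 15.2% (13.8% to 16.6%) of the class in neither. Of narrower antibody 2-only peaks, 2.13% lay in RNA polymerase II and 0.895% in the antibody 1 input list. Their joint overlap was not counted, so whether the association is particular to the wide peaks was not tested.

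**Figure D3:**
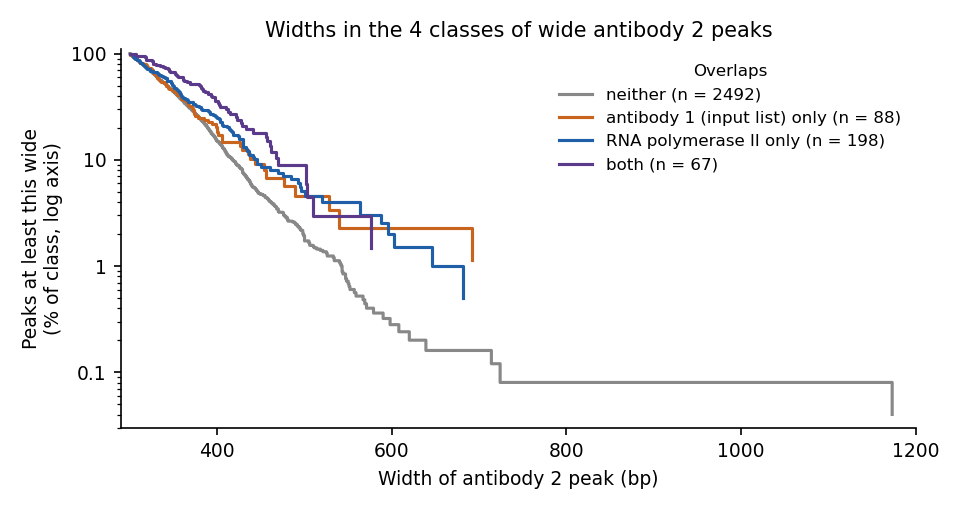
Percentage of peaks at least as wide as the value on the horizontal axis (bp), on a log axis, for the 4 classes of wide antibody 2-only peaks. The line of the class in both lists lies highest at 400 bp, with 34.3% of its peaks at least that wide, while the widest peak of all, at 1173 bp, belongs to the class in neither list.

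The distance to antibody 1 varied widely, and RNA polymerase II overlap was higher the nearer antibody 1 lay, apart from the 2 nearest classes, whose intervals overlap. The median distance to the nearest antibody 1 peak was 67.2 kb (quartiles 18.7 and 195 kb). It was 104 kb for narrower antibody 2-only peaks and 100 kb for all antibody 2 peaks. Measured between centres, antibody 1 lay within 10 kb of 17.0% of members. The same held for 9.91% of narrower antibody 2-only peaks and 11.4% of all antibody 2 peaks. Within 1 kb of an antibody 1 peak lay 179 of the 2845 members (6.29%). Of the 33 peaks within 100 bp of antibody 1, 16 overlapped RNA polymerase II (48.5%, 30.8% to 66.5%), and of the 56 at 101 to 300 bp, 30 did (53.6%). The share was 28.9% at 301 to 1000 bp, 17.7% (13.7% to 22.4%) at 1001 to 10000 bp and 9.92% at 10001 to 50000 bp. From 50001 to 200000 bp it was 6.20% (4.74% to 7.94%), and beyond that 8 of 698 peaks overlapped (1.15%, 0.496% to 2.25%). The median width in these classes ranged from 336 to 362.5 bp. Few peaks lay on either side of the antibody 1 limit. Of 26 wide antibody 2 peaks that shared only 1 to 50 bp with antibody 1, 12 lay in RNA polymerase II (46.2%, 26.6% to 66.6%), and of the 15 members at most 50 bp away 8 did (53.3%, 26.6% to 78.7%), with overlapping intervals.

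**Figure D4:**
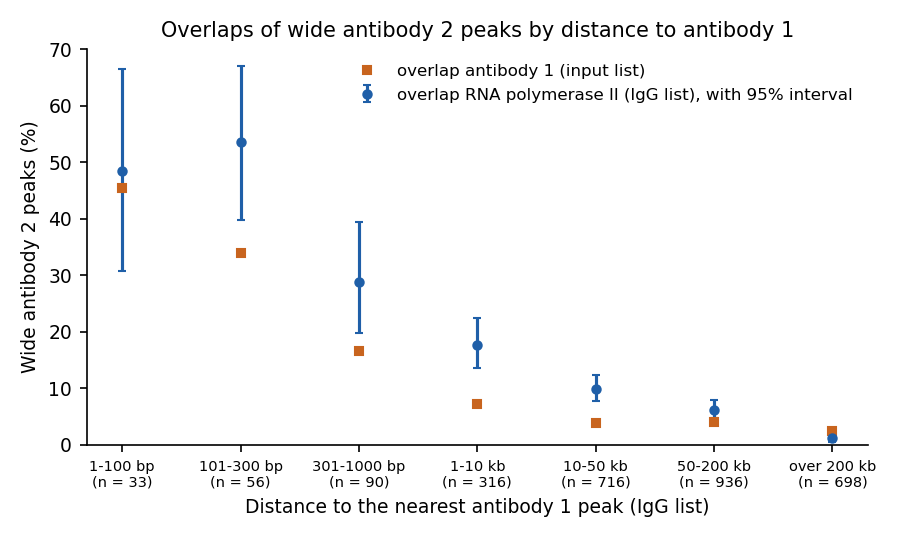
Percentage of wide antibody 2-only peaks that overlap an RNA polymerase II peak (blue, with exact 95% binomial intervals) or an antibody 1 peak called against input (orange), by distance to the nearest antibody 1 peak of the IgG list, with the number of peaks under each class. RNA polymerase II overlap goes from 48.5% within 100 bp to 1.15% beyond 200 kb.

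The 179 antibody 1 peaks nearest to those close members had a median width of 229 bp. RNA polymerase II overlapped 115 of them (64.2%, 56.8% to 71.3%), and another antibody 2 peak lay on 96 (53.6%, 46.0% to 61.1%). The same shares were not counted over all 13499 antibody 1 peaks of the IgG list. Whether they are particular to these 179 was not tested. By class, 40.3% (28.5% to 53.0%) of the peaks in both lists lay within 1 kb of antibody 1, 22.7% of those in RNA polymerase II only, 22 of the 88 in the antibody 1 input list only, and 3.41% (2.73% to 4.20%) of those in neither. The classes use the antibody 1 input list and the distance uses the IgG list of the same antibody 1 library. Nearness to antibody 1 is thus partly built into the classes, and these shares are descriptions only.

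The antibody 2 signal itself was called again with the other control almost throughout. In the antibody 2 list against input, 2831 of the 2845 peaks were found (99.5%, 99.2% to 99.7%), against 93.2% of all antibody 2 peaks, and 2454 (86.3%, 84.9% to 87.5%) met a peak of 300 bp or wider there. Of the wide peaks with antibody 1, all 1860 were found again and 94.7% (93.6% to 95.7%) met a peak of 300 bp or wider. The width was identical for 2120 of the 2831, smaller for 521 and larger for 190. Both calls use the same antibody 2 reads, so this describes the control and is no second measurement. The 14 peaks that were not found again were 306 to 425 bp wide. They lay on chromosomes 1, 10, 11, 19, 20, X and Y, with 5 of them on chromosome 11, and 3 of the 14 overlapped RNA polymerase II.

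The surroundings of the wide antibody 2-only peaks were closer to those of narrower antibody 2-only peaks than to those of wide peaks with antibody 1. The next antibody 2 peak of any width lay at a median of 1425 bp, against 201.5 bp for wide peaks with antibody 1 and 1717 bp for narrower antibody 2-only peaks. Another antibody 2 peak within 1 kb was present for 39.7% (37.9% to 41.5%) of the group, for 82.0% (80.2% to 83.8%) of wide peaks with antibody 1 and for 35.0% (34.9% to 35.2%) of the narrower ones. By class the share was 36.7% (34.8% to 38.6%) in neither list and 61.6% (54.5% to 68.4%) in RNA polymerase II only. Members were sparse, with a median of 270 kb to the next member, and no comparison set of like number was counted. With neighbours at most 10 kb apart, 2720 members stood alone, 61 pairs formed, and a single run held 3. That run spanned 2582 bp on chromosome 18 from 18517482 to 18520063, with peaks of 335, 547 and 309 bp and the nearest RNA polymerase II peak 170793 bp away. Its first peak began 3376 bp from the end of a 3.10 Mb stretch in which no list had a peak. The first pairs in genome order lay on chromosome 1 at 10506062 to 10514154 and at 18602670 to 18609659, also outside RNA polymerase II peaks.

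The density over chromosomes was highest on chromosome 19, known for its many genes, with 145 of the peaks or 2.46 per Mb. Chromosomes 22 and 17 had 1.48 per Mb each, and chromosome X the fewest of the chromosomes other than Y, with 30 peaks or 0.197 per Mb. Between chromosome 19 and X the density differed 12.5-fold, against 2.81-fold for all antibody 2 peaks and 10.0-fold for wide peaks with antibody 1. Per 1000 antibody 2 peaks, 10.7 were members on chromosome 19, 7.98 on chromosome 16 and 2.41 on chromosome X. Over 23 chromosomes, member density followed that of RNA polymerase II peaks (Pearson's r = 0.92, Spearman's rho = 0.91), and without chromosomes 19 and 22 r was 0.86. With antibody 1 peaks r was 0.94 and rho 0.93 (r = 0.87 without chromosomes 19 and 22), and with all antibody 2 peaks r was 0.90 and rho 0.93. For wide peaks with antibody 1, r with RNA polymerase II was 0.92. The corresponding r of all antibody 2 peaks with RNA polymerase II was 0.81. Chromosomes of single libraries share depth and control and are not replicates, so these values are descriptions. Base composition was not compared between chromosomes.

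**Figure D5:**
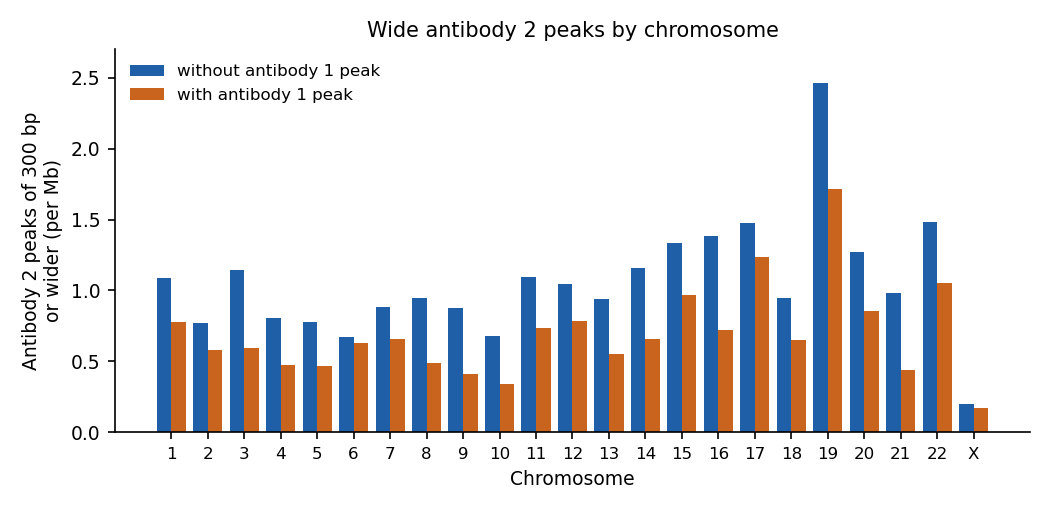
Antibody 2 peaks of 300 bp or wider per Mb on each chromosome other than Y, without (blue) and with (orange) an antibody 1 peak, from 1 library each and so without error bars. Chromosome 19 is highest in both groups, at 2.46 and 1.72 per Mb, and chromosome X lowest, at 0.197 and 0.171.

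Among wide antibody 2 peaks, those without antibody 1 outnumbered those with it on every chromosome, including Y with its 2 wide peaks, although on chromosomes 6, 17, 22, X and Y the interval includes 50%. Leaving out Y, their share ranged from 51.8% (45.0% to 58.5%) on chromosome 6 to 69.1% (55.2% to 80.9%) on chromosome 21, with 68.1% (60.8% to 74.8%) on chromosome 9. Both counts come from the rule, and the majority depends on its width limit. Over all chromosomes at a limit of 400 bp, 467 peaks were without antibody 1 and 1090 with it. At 500 bp the counts were 64 and 627. The share of members in RNA polymerase II peaks was 19.3% (13.2% to 26.7%) on chromosome 19, 18.6% (12.5% to 26.0%) on chromosome 12 and 15.2% (9.41% to 22.7%) on chromosome 16. On chromosomes 8, 13 and 18 it was 4.35% (1.61% to 9.22%), 4.44% (1.22% to 11.0%) and 4.05% (0.844% to 11.4%). On chromosome 21, 1 of 38 peaks overlapped (0.0666% to 13.8%). These chromosomes were picked for high or low shares, and for 13, 18 and 21 the interval includes the 9.31% of all members. The share of all antibody 2 peaks in RNA polymerase II was not counted by chromosome.

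The widest members show the range of these settings. The widest of all, 1173 bp on chromosome 1 at 121484331 to 121485503, had no other antibody 2 peak within 10 kb and lay 223 kb from RNA polymerase II. Its last base adjoined the 21.1 Mb from 121485504 to 142557376 in which none of the 6 lists had a peak. By definition such a stretch begins and ends at a listed peak, so some peak had to adjoin it. Whether build hg19 holds assembled sequence there was not checked. The widest member stood apart in width from the next, 724 bp on chromosome 19 at 3456495 to 3457218. That one had 7 other antibody 2 peaks within 10 kb and RNA polymerase II at 20.9 kb.

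A peak of 714 bp on chromosome 14 (107147625 to 107148338) lay among 10 other antibody 2 peaks within 10 kb, with antibody 1 at 6613 bp and RNA polymerase II at 6261 bp. The 639 bp peak on chromosome 15 (22461012 to 22461650) lay 432 kb from antibody 1, the largest such distance among the 10 widest. The 620 bp peak on chromosome 16 (77035930 to 77036549) and the 608 bp peak on chromosome 19 (48219636 to 48220243) lay 37.3 kb and 26.5 kb from RNA polymerase II. All of these belonged to the class in neither list, as did 6 of the 10 widest members.

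Members in RNA polymerase II included 682 bp on chromosome 17 (40020780 to 40021461), of which 465 bp were covered by an RNA polymerase II peak of 964 bp. The 646 bp member on chromosome 19 (47776434 to 47777079) lay wholly inside an RNA polymerase II peak of 1529 bp, and an antibody 1 peak of 180 bp followed 288 bp further on. In the 603 bp member on chromosome 1 (150951714 to 150952316) the order was the opposite: the antibody 2 peak enclosed an RNA polymerase II peak of 190 bp. This last one lay in a bin crowded with antibody 1 input-list peaks, but overlapped none of them.

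The widest members met only by the antibody 1 input list were 692 bp on chromosome 12 (51984932 to 51985623), 539 bp on the same chromosome (49109747 to 49110285) and 528 bp on chromosome 15 (98971465 to 98971992). The first and the third each enclosed a small antibody 1 input-list peak, of 168 bp and 155 bp, far from RNA polymerase II. The second was a near miss: its edge lay 25 bp from an antibody 1 peak of 626 bp in the IgG list and 39 bp from an RNA polymerase II peak of 297 bp.

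Of the members in both lists, the widest was 576 bp on chromosome 1 (227944325 to 227944900), which enclosed an RNA polymerase II peak of 131 bp and an antibody 1 input-list peak of 128 bp. The 503 bp member on chromosome 19 (49340344 to 49340846) likewise enclosed peaks of 197 bp and 123 bp. The 510 bp member on chromosome 6 (88876427 to 88876936) lay inside an RNA polymerase II peak of 2433 bp, with an antibody 1 peak of 135 bp in the IgG list 261 bp away.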

How the data were processed

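The 3 ChIP libraries (antibody 1, antibody 2, RNA polymerase II) each have a deposited peak list against IgG and another against input; the authors' lists hold chromosome, start and end only. Per the submitters' processing notes, Bowtie 0.12.7, SAMtools, MACS2 2.0.9 and build hg19 were used; the control and a q threshold of 0.1 stand only in the list names, and the handling of duplicate reads was not given in the sources used here. Starts, counted from 0 in the lists, are printed counted from 1. A low threshold and the minimum width, which depends on the caller's settings, affect how many peaks reach 300 bp.

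Overlap meant at least 1 shared bp, computed with NumPy 2.4.6 and pandas 2.3.3 in Python 3.11.15; overlaps and covered bases were identical to bedtools 2.31.1 for 465837 peaks and 4 lists. Intervals came from SciPy 1.17.1 and plots from matplotlib 3.10.9. Named regions were the 10 widest members, the 3 widest of each class and the 3 longest runs. The members and comparisons were chosen with earlier results of these data known. Gene lists, nearest genes, motifs and peak sequences, foreseen for an hg19 reference, were not analysed here. Stretches without peaks were gaps of at least 200 kb in all 6 lists together. No hg19 sequence was used, so gaps in the assembly could not be told from assembled sequence without peaks. Crowded bins held at least 50 antibody 1 input-list peaks and at least 5 times the IgG-list number plus 1.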

Additional observations from a re-analysis of the deposited data

How the results depend on the processing

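The values that follow left the 95% interval of the share in the report, or differed over 1.5 times from the count there; the cause was not tested unless the setting itself fixes it. The number of members depends on the width limit by construction: 36872 at 200 bp, 467 at 400 bp and 64 at 500 bp. At these 3 limits the share of members in RNA polymerase II was 4.17%, 15.4% and 21.9%, that of wide peaks with antibody 1 was 73.1%, 79.5% and 82.5%, and the share of members in the antibody 1 input list was 2.05%, 8.57% and 12.5%. The share found again in the antibody 2 input list was 98.6% at 200 bp and 100% at 500 bp. Without peaks within 1 kb of antibody 1, RNA polymerase II overlap of members was 7.24% and antibody 1 input-list overlap 3.98%, and peaks with antibody 1 within 1 kb overlapped RNA polymerase II at 74.2%. With 10 kb, chosen after seeing the data, these were 5.83%, 3.53% and 66.6%. Dividing wide peaks by the antibody 1 input list gave RNA polymerase II shares of 7.79% without and 74.9% with antibody 1. Requiring 50% of the peak to be covered gave 5.73% for members and 60.9% for peaks with antibody 1 in RNA polymerase II, 1.48% in the antibody 1 input list and 97.3% in the antibody 2 input list. RNA polymerase II against input gave 11.0% and 81.0%, and counting RNA polymerase II peaks within 1 kb 15.1% and 86.6%. In every one of these settings the share in RNA polymerase II was lower without antibody 1 than with it. Chromosomes 1 to 22 and X, positions outside the crowded bins, members found again against input and, chosen after seeing the data, positions at least 100 kb from stretches without peaks left every share they were run for within its interval. The antibody 1 input-list share cannot be given when that list makes the division. A stricter peak score was not run, because the lists hold none, and read depth is unknown. No paired analysis was possible because each condition has 1 library.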

Other observations

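A small set of wide antibody 2-only peaks lay within 100 kb of stretches without any peak. The 6 lists together leave 160 stretches of at least 200 kb with no peak, 193.9 Mb in all, and 21 of the 2845 members lay within 100 kb of such a stretch (0.738%, 0.457% to 1.13%). For narrower antibody 2-only peaks the share was 0.462% (0.442% to 0.482%), an interval that overlaps the former. For wide peaks with antibody 1 it was 0.484% (0.221% to 0.917%), which overlaps it too. Of the 21, 12 lay within 10 kb of the stretch. None of the 21 lay in an RNA polymerase II peak of the IgG list, and 5 lay in an antibody 1 input-list peak. Over all members these shares were 9.31% and 5.45%, and over all antibody 2 peaks 3.2% and 2.39%. So few peaks say little about either share, and no difference was tested. For 12 of the 21 the stretch was 1 Mb or longer. The distance to these stretches was measured after the widest member had been seen to adjoin one.

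Every such stretch begins and ends at a listed peak by definition, so a member at an edge is no separate finding. Several members lay at such an edge. On chromosome 6 the peak at 58778735 to 58779181 (447 bp) ended where a 3.10 Mb stretch without peaks began, and on chromosome 19 the peak at 27731924 to 27732345 (422 bp) began where one of 3.11 Mb ended. On chromosome 9 a peak of 489 bp began at 70402988, directly after a stretch of 0.251 Mb, and overlapped an antibody 1 input-list peak. On chromosome 5 a peak at 46395530 to 46395866 lay 9.45 kb before a stretch of 3.03 Mb, and on chromosome 10 a peak at 42384417 to 42384842, in an antibody 1 input-list peak, lay 19.8 kb after a stretch of 3.21 Mb. Whether the sequence of these sites differs from that of other members was not tested.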
